A study of Mus musculus with 8 samples.

Results

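The receptors through which glutamate, GABA, glycine, the monoamines and acetylcholine (at its muscarinic receptors) act on cells were examined in cells sorted from medulloblastomas of mice. The genes were taken by symbol. They were those for AMPA, kainate, NMDA, delta and metabotropic glutamate receptors, for GABA-A, GABA-B and glycine receptors, and for serotonin, dopamine, adrenergic and muscarinic receptors. This gave 72 of the 22180 genes measured, in 12 classes: 23 genes for glutamate receptors, 23 for GABA and glycine receptors and 26 for monoamine and muscarinic receptors. Other receptor genes of these classes were not analysed here. All mice were Patched1+/- (CD1) with the Sox2eGFP reporter (B6 parents), received 3 Gy of ionizing radiation at birth, had signs of a brain tumour and were over 70 days old. Loss of Patched1 function activates Hedgehog signalling in granule neuron progenitors of the cerebellum, from which such tumours grow. After removal of CD45+ (white blood) and Ter119+ (red blood) cells, the eGFP+ cells formed the Sox2-positive and the eGFP- cells the Sox2-negative fraction, so the fractions differ by reporter level, and both carry the same alleles and the same irradiation. RNA from 3 tumours was pooled for every array. Of the 8 Affymetrix arrays, 4 were Sox2-positive and 4 Sox2-negative, and the tests rest on the variation among pools, not among single tumours.

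AMPA, kainate and NMDA receptors are ion channels of 4 subunits that open on glutamate and excite the cell, and the make-up of subunits sets how much calcium passes. Metabotropic glutamate, GABA-B, most serotonin, and all dopamine, adrenergic and muscarinic receptors act through G proteins, while GABA-A and glycine receptors are chloride channels. In the cerebellum, granule neurons carry many of the channels, and oligodendrocyte progenitors and astrocytes, including Bergmann glia, also express receptors for glutamate and GABA.

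Levels are log2 values of the authors' normalized intensities, and differences are Sox2-positive minus Sox2-negative on that scale. Sox2 itself, the gene behind the sort, was at 5.67, 6.07, 6.36 and 5.68 in Sox2-positive pools 1 to 4 and at 4.05, 4.60, 4.49 and 4.04 in the Sox2-negative pools. Correlations between arrays over all genes were 0.981 to 0.987 within the Sox2-positive fraction, 0.973 to 0.984 within the Sox2-negative fraction and 0.942 to 0.968 across fractions. The files hold no detection calls, so the upper quartile (5.80) of 1394 olfactory and vomeronasal receptor genes, for which no use is known in these cells, served as a guide to dim values. A fold against a group mean below this guide may be too small.

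Sox2-positive cells had higher levels of 17 of the 72 receptor genes and lower levels of 2 (limma, adjusted p under 0.05 over all genes). These 19 genes made up 26.4% of the receptor genes, where 8.47% of all genes passed the test. For higher genes the shares were 23.6% against 5.96% of all genes. Lower genes were 2 of 72, a share close to the 2.52% over all genes. By family, 9 of 23 glutamate receptor genes were higher and 2 lower, 7 of 23 GABA and glycine receptor genes were higher and 0 lower, and 1 of 26 monoamine and muscarinic receptor genes was higher and 0 lower. Over all genes, higher calls numbered 1321 and lower calls 558, or 1282 and 847 after quantile normalization. The median difference was 0.13 for the glutamate family, 0.004 for the GABA and glycine family and -0.05 for the monoamine and muscarinic family, beside -0.03 over all genes.

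The largest increases were those of Gabra3, a GABA-A receptor subunit (5.18-fold), of the metabotropic glutamate receptor gene Grm5 (4.36-fold) and of the kainate receptor subunit gene Grik3 (4.25-fold). The decreases were those of Grik2 and Grin2b, subunits of kainate and NMDA receptors. The fractions did not overlap at all for 22 of the 72 genes (30.6%), beside 13.7% of all genes. Both fractions had means below the guide for 34 of the 72 genes. None of these 34 passed the limma test, and 2 had an unadjusted p under 0.05. In the whole set of 22180 genes, 10069 were equally dim by this measure, and 185 of those passed. Calls were thus rare among dim genes of any kind, and a lack of calls particular to receptor genes is not shown.

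**Figure D1:**
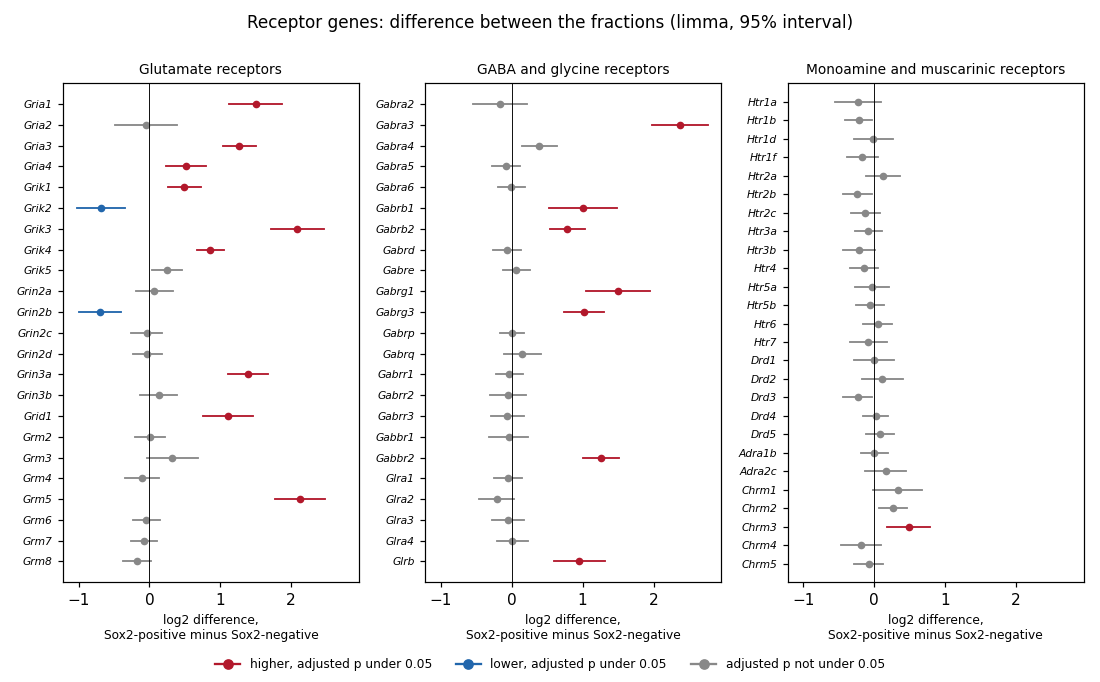
Difference in log2 value (Sox2-positive minus Sox2-negative, points) with its 95% interval (lines) for each of the 72 receptor genes, in 3 panels by family; red genes were higher and blue genes lower at an adjusted p under 0.05. Points reach 2.37 (Gabra3) in the GABA and glycine panel and 2.13 (Grm5) in the glutamate panel, and those of the monoamine and muscarinic panel lie between -0.24 and 0.49.

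Promoter sequences are shown for the 3 genes that rose most and the 1 that fell most among those with an entry in the RefSeq table of build GRCm38.p6, to show sequence around an annotated start of these transcripts. The table held an entry for 57 of the 72 genes and for 12 of the 19 that passed the test. Each window runs 5′ to 3′ on the gene's strand from 250 bases before to 50 bases after the start. Capitals mark matches, on either strand, to AACAAT, a form of the site that Sox factors bind. Gabra3 has 2 windows in the table, for different starts, and 1 is printed. This Gabra3 window is chrX:72656870-72657169 (minus strand), the Grik3 window chr4:125490446-125490745 (plus strand), the Gabrg1 window chr5:70842568-70842867 (minus strand) and the Grik2 window chr10:49788705-49789004 (minus strand).
Gabra3: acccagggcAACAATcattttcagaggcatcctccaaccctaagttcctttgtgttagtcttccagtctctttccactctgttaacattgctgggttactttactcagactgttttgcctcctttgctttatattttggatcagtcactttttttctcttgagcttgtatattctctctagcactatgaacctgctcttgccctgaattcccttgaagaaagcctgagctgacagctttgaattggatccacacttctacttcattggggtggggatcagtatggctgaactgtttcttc
Grik3: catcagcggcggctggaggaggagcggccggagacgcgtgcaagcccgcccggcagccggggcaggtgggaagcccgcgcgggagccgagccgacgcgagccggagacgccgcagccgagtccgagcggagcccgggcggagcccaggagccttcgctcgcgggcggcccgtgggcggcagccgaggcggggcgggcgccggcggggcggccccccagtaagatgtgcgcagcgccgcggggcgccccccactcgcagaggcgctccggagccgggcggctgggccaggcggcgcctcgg
Gabrg1: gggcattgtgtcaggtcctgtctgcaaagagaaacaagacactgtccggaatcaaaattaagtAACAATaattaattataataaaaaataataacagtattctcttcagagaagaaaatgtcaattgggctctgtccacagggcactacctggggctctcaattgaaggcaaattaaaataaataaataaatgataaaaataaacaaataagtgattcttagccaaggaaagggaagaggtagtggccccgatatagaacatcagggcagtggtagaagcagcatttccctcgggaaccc
Grik2: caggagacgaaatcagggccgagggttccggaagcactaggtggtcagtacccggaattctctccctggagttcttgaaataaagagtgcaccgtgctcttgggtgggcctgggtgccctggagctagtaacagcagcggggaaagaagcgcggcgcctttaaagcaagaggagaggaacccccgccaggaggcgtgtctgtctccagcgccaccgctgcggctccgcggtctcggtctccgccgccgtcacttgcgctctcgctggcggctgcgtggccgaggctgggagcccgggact

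AACAAT was found once in each of the Gabra3 and Gabrg1 windows printed, and 10.7% of all 32851 windows held it. Among windows of receptor genes, 8 of 68 held it (11.8%), close to the share of all windows. Of the windows of receptor genes that passed the test, 3 of 16 held it, and no enrichment was tested. The other motifs searched, also on both strands, were CAGCTG (an E-box, a site of basic helix-loop-helix factors; in 16.3% of all windows), TTCAGCACC (part of the site of the repressor REST; 0.371%) and GACCACCCA (the site of Gli factors; 0.253%). These letters were not in the windows printed. GC content was 82.0% in the Grik3 window, 64.7% in that of Grik2, 43.0% in that of Gabra3 and 38.3% in that of Gabrg1, beside a median of 52.7% over all windows.

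Among AMPA receptor subunits, 3 of 4 rose. Gria1 was at 7.10, 7.05, 7.87 and 6.85 in Sox2-positive pools 1 to 4 and at 5.73, 5.85, 5.75 and 5.56 in Sox2-negative pools 1 to 4. The fractions did not overlap, and Sox2-positive pool 3 stood highest. Levels were 2.82-fold higher in Sox2-positive cells (difference 1.50, SE 0.17, adjusted p = 7.6e-05), with a Sox2-negative mean of 5.72, below the guide.

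Gria3 was at 8.41, 8.52, 8.76 and 8.29 against 7.27, 7.32, 7.17 and 7.16 in the same order. The pools of each fraction lay close together, and the gene was 2.41-fold higher (difference 1.27, SE 0.11, adjusted p = 3.85e-06). Gria4, which occurs in Bergmann glia and in granule neurons, was 1.43-fold higher at 8.72 ± 0.28 against 8.20 ± 0.15 (mean ± SD, n = 4 each; adjusted p = 0.0263). Leaving out any of 5 arrays ended this call (adjusted p 0.0608 to 0.0776), namely Sox2-positive pools 2 and 3 and Sox2-negative pools 1, 2 and 4. With the replicate number of the pools as a block in the fit, the call held (adjusted p = 0.0036).

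Gria2, the subunit that keeps calcium out of AMPA receptors once its transcript is edited, did not pass the test. It was at 9.30, 9.10, 9.56 and 8.73 in Sox2-positive and at 9.45, 9.03, 9.69 and 8.73 in Sox2-negative pools. The difference between the means was -0.05 (95% interval -0.49 to 0.38, adjusted p = 0.928). With the replicate number as a block, the interval was -0.25 to 0.14 (adjusted p = 0.797). The sign of the difference turned on leaving out Sox2-positive pool 4 (0.10), Sox2-negative pool 1 (0.025) or Sox2-negative pool 3 (0.10). Pools of equal number had like levels: the differences within numbers 1 to 4 were -0.15, 0.07, -0.13 and 0.00, while the means of the numbers spanned 0.89. Within an array, the log2 ratio of Gria1 to Gria2 was -2.20 to -1.69 in Sox2-positive and -3.94 to -3.17 in Sox2-negative pools. That of Gria3 to Gria2 was -0.89 to -0.44 against -2.52 to -1.57, and neither ratio overlapped between the fractions. The ratio of Gria4 to Gria2 overlapped (-0.79 to -0.22 against -1.32 to -0.62). A ratio of probe sets has no absolute meaning, so only its shift between fractions can be read. These pairs were picked with their values known and were not tested.

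**Figure D2:**
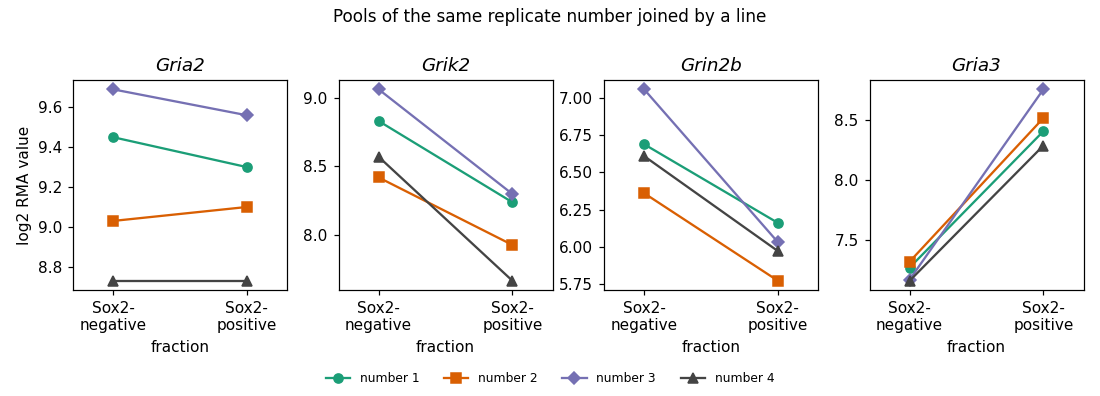
Log2 value (vertical axis, a separate scale in each panel) of Gria2, Grik2, Grin2b and Gria3 in the Sox2-negative and the Sox2-positive pool of each replicate number, joined by a line. The lines of Gria2 are nearly flat but far apart, those of Grik2 and Grin2b fall for all 4 numbers, and those of Gria3 rise for all 4.

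Of 5 kainate receptor genes, 3 rose and 1 fell. Grik3 was at 7.10, 7.90, 7.17 and 7.65 in Sox2-positive pools 1 to 4 and at 5.13, 5.34, 5.28 and 5.73 in Sox2-negative pools. No pool of one fraction reached the other, and the log2 difference was 2.09 (SE 0.17, adjusted p = 3.86e-06); the Sox2-negative mean (5.37) lay below the guide. Grik4, which encodes a subunit of high affinity for the agonist kainate, was at 7.31, 7.56, 7.52 and 7.47 against 6.54, 6.58, 6.61 and 6.70. That was 1.81-fold higher (difference 0.86, SE 0.09, adjusted p = 2.73e-05). Grik1 was 1.41-fold higher, at 5.95 ± 0.20 against 5.46 ± 0.11 (adjusted p = 0.0112).

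Grik2, which encodes a main pore-forming kainate subunit of granule neurons, moved the other way. It was at 8.24, 7.93, 8.30 and 7.67 in Sox2-positive pools and at 8.83, 8.42, 9.06 and 8.57 in Sox2-negative pools 1 to 4. The lowest Sox2-negative pool (8.42) lay just above the highest Sox2-positive pool (8.30). The difference was -0.69 (SE 0.16, adjusted p = 0.0142). The call was lost without Sox2-negative pool 1 (adjusted p = 0.0508) and held with the replicate number as a block (adjusted p = 0.000606). Grik5, the other high-affinity subunit, did not pass (0.25, 95% interval 0.04 to 0.46, adjusted p = 0.159). The ratio of Grik3 to Grik2 within an array was 2.77 higher on the log2 scale in Sox2-positive pools (-1.14 to -0.02 against -3.78 to -2.84, not tested).

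Of 6 NMDA receptor genes, 1 rose and 1 fell. Grin3a encodes a glycine-binding subunit that lowers calcium entry through NMDA receptors. It was at 7.63, 7.92, 7.83 and 7.49 in Sox2-positive pools and at 6.14, 6.35, 6.17 and 6.67 in Sox2-negative pools. The fractions were apart, and the gene was 2.61-fold higher (difference 1.39, SE 0.13, adjusted p = 1.19e-05).

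Grin2b, the glutamate-binding subunit typical of immature neurons, was at 6.16, 5.77, 6.03 and 5.97 against 6.69, 6.36, 7.06 and 6.61. Every Sox2-negative pool lay above every Sox2-positive pool, and the gene fell by 0.70 (SE 0.14, adjusted p = 0.00466). Its other, dimmer probe set had a log2 difference of -0.06, and the mean of both sets gave -0.38 (adjusted p = 0.0344). The remaining NMDA receptor genes did not pass, with differences from -0.04 (Grin2c) to 0.13 (Grin3b). Grid1, a delta receptor gene whose product binds cerebellin proteins at synapses, was at 6.86, 7.59, 7.45 and 6.81 in Sox2-positive pools and at 6.12, 6.20, 5.90 and 6.05 in Sox2-negative pools. It was 2.16-fold higher (difference 1.11, SE 0.16, adjusted p = 0.000503).

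Of 7 metabotropic glutamate receptor genes only Grm5 passed. Grm5 couples to calcium release through Gq proteins and is known from oligodendrocyte progenitors and immature astrocytes. It was at 7.46, 8.12, 8.26 and 7.54 in Sox2-positive pools and at 5.55, 5.70, 5.92 and 5.70 in Sox2-negative pools. The pools of the fractions were far apart, with a log2 difference of 2.13 (SE 0.16, adjusted p = 1.81e-06) from a Sox2-negative mean of 5.72, below the guide. Grm3, an astrocyte receptor, had the next largest difference, 0.32 (95% interval -0.04 to 0.68, adjusted p = 0.318), with both means below the guide. Grm7, a presynaptic receptor, had a difference of -0.07, and the other 4 genes lay between -0.17 (Grm8) and 0.002 (Grm2).

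**Figure D3:**
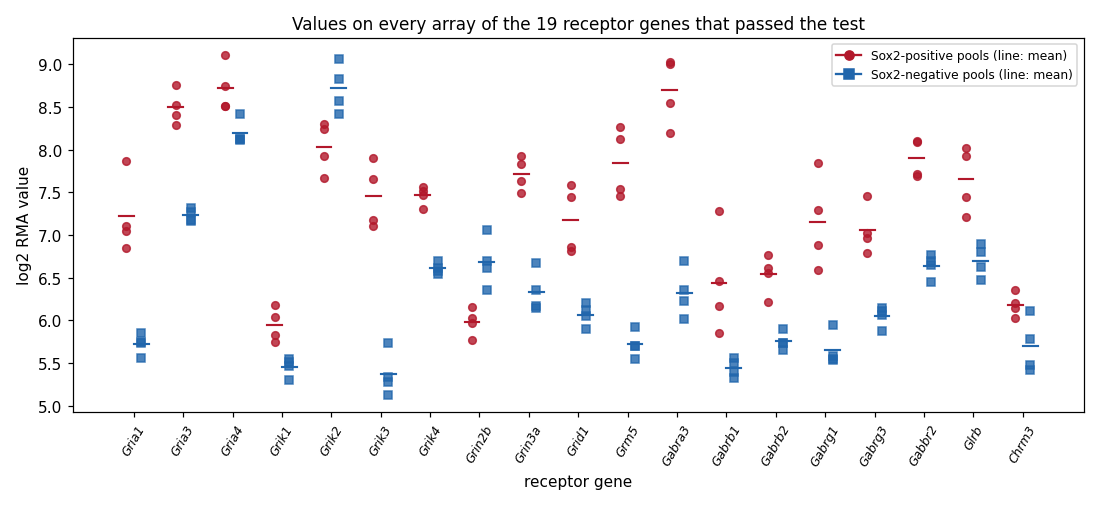
Log2 value on each array (points) and group mean (lines) of the 19 receptor genes that passed the test, with Sox2-positive pools in red and Sox2-negative pools in blue. For every gene except Chrm3 the 4 red and the 4 blue points do not overlap. All 4 blue points lie above all 4 red points only for Grik2 and Grin2b.

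GABA-A receptors are built of 5 subunits, usually alpha, beta and gamma. Of 16 subunit genes, 5 rose and none fell, and they included 1 alpha, 2 beta and 2 gamma genes. Gabra3 was at 8.55, 9.00, 9.03 and 8.20 in Sox2-positive pools 1 to 4 and at 6.02, 6.35, 6.23 and 6.69 in Sox2-negative pools 1 to 4. The fractions were well separated, with a log2 difference of 2.37 (SE 0.18, adjusted p = 1.58e-06).

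Gabrg1, a gamma subunit known from glia, was at 6.88, 7.29, 7.84 and 6.59 in Sox2-positive and at 5.58, 5.95, 5.53 and 5.55 in Sox2-negative pools. Sox2-positive pool 3 stood highest, and the gene was 2.82-fold higher (difference 1.49, SE 0.21, adjusted p = 0.000377). Gabrb1, a beta subunit also found in astrocytes, was at 6.17, 6.46, 7.28 and 5.85 against 5.32, 5.56, 5.50 and 5.40. Again pool 3 was highest, and pool 4 was close to the Sox2-negative pools. The log2 difference was 1.0 (SE 0.22, adjusted p = 0.012). Gabrg3 was 2.02-fold higher, at 7.06 ± 0.29 against 6.05 ± 0.12 (adjusted p = 0.000163), and Gabrb2 was 1.72-fold higher, at 6.54 ± 0.23 against 5.75 ± 0.11 (adjusted p = 0.000498). The Sox2-negative means of Gabrg1, Gabrb1 and Gabrb2 lay below the guide.

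The other 11 GABA-A genes did not pass, and their differences ran from -0.17 to 0.39. The upper end was Gabra4, just outside the threshold (adjusted p = 0.0543, and 0.0387 with the replicate number as a block), whose pools did not overlap: 6.53, 6.49, 6.86 and 6.25 against 6.08, 6.11, 6.18 and 6.20. Gabra6, the alpha subunit that marks mature cerebellar granule neurons, was at 4.64 ± 0.13 and 4.65 ± 0.06, both below the guide.

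Most GABA-A subunit genes lie in clusters, and 4 of the clusters held both genes that passed and genes that did not. On chromosome 5 the measured genes are, in order, Gabrg1 (log2 difference 1.49), Gabra2 (-0.17), Gabra4 (0.39) and Gabrb1 (1.0), of which the outer genes passed the test. On chromosome X, Gabra3 (2.37) lies between Gabre (0.06) and Gabrq (0.15), which did not pass. On chromosome 7, Gabrg3 (1.02) neighbours Gabra5 (-0.08), and on chromosome 11, Gabrb2 (0.78) neighbours Gabra6 (-0.005). On chromosome 4, neither Gabrr2 (-0.06) nor its neighbour Gabrr1 (-0.03) passed. The differences between neighbours were not tested. Gene order is that of the RefSeq table of GRCm38.p6.

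**Figure D4:**
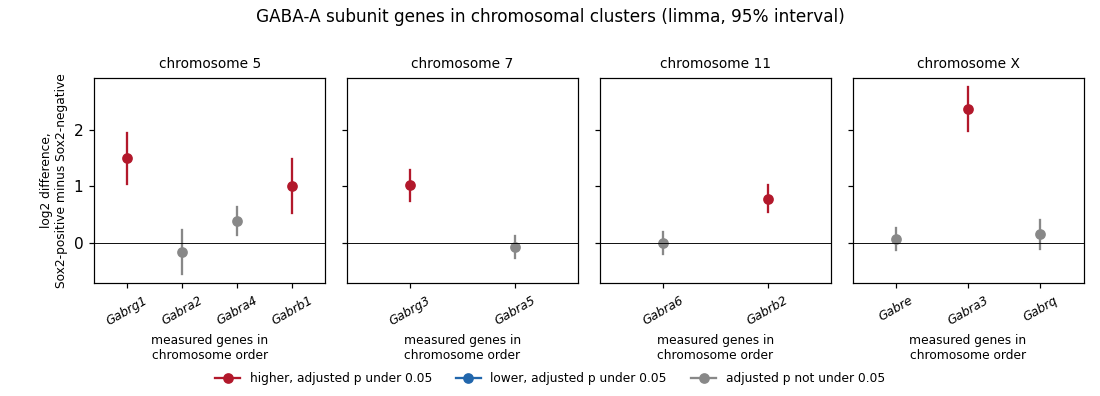
Difference in log2 value (Sox2-positive minus Sox2-negative, points) with its 95% interval (lines) for the measured GABA-A subunit genes of the 4 chromosomal clusters with a gene that passed, in the order in which they lie; red genes passed the test. Gabra3 on chromosome X stands at 2.37, and Gabre and Gabrq on either side of it have intervals that include 0.

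GABA-B receptors need both of their subunits to reach the cell surface and signal. Gabbr2, the subunit that couples to the G protein, was at 7.72, 8.09, 8.10 and 7.69 in Sox2-positive pools and at 6.69, 6.45, 6.65 and 6.77 in Sox2-negative pools. It was 2.39-fold higher with no overlap (log2 difference 1.26, SE 0.12, adjusted p = 1.19e-05). Gabbr1, the subunit that binds GABA, was at 7.93 ± 0.26 and 7.97 ± 0.16, a difference of -0.04 with a 95% interval of -0.32 to 0.23 (adjusted p = 0.905). Its sign turned on leaving out pool 4 of the Sox2-positive (0.04) or pool 3 of the Sox2-negative fraction (0.03). The log2 ratio of Gabbr2 to Gabbr1 within an array was -0.19 to 0.16 in Sox2-positive and -1.53 to -1.14 in Sox2-negative pools (not tested).

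Of 5 glycine receptor genes, the beta subunit gene Glrb rose. Glrb was at 7.21, 8.02, 7.93 and 7.44 in Sox2-positive pools and at 6.47, 6.89, 6.80 and 6.63 in Sox2-negative pools. It was 1.94-fold higher (difference 0.95, SE 0.16, adjusted p = 0.00198), and the fractions did not overlap. The beta subunit anchors the receptor at synapses and binds gephyrin. The alpha subunit genes Glra1, Glra2, Glra3 and Glra4 had differences from -0.21 to 0.01 and did not pass, and both means of 3 of them lay below the guide.

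Of the 21 serotonin, dopamine and adrenergic receptor genes, 0 passed the limma test, and 3 had an unadjusted p under 0.05. Over all 22180 genes, 8.47% passed and 4454 had an unadjusted p under 0.05. With only 21 genes, a count of 0 cannot be told apart from that share. For serotonin, differences ran from -0.24 (Htr2b) to 0.12 (Htr2a), and 12 of 14 genes had a negative sign. So did 13019 of all 22180 genes, and 24 of the 34 receptor genes with both means below the guide. Htr2b had means of 5.53 ± 0.08 (Sox2-positive) and 5.77 ± 0.15 (Sox2-negative) (95% interval -0.44 to -0.03, adjusted p = 0.177), and Htr3a, a serotonin-gated ion channel, at 6.45 ± 0.08 and 6.53 ± 0.09. Both means were below the guide for 10 of the 14 genes. Among 5 dopamine receptor genes, the largest difference was that of Drd3, -0.23 (95% interval -0.44 to -0.03, adjusted p = 0.178). Its pools did not overlap: 6.36, 6.32, 6.05 and 6.37 against 6.51, 6.42, 6.57 and 6.53. Drd5 had a difference of 0.09. The adrenergic genes Adra1b and Adra2c had differences of 0.001 and 0.16, with both means below the guide.

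Among 5 muscarinic receptor genes, Chrm3, a Gq-coupled receptor, was at 6.03, 6.20, 6.36 and 6.15 in Sox2-positive and at 5.78, 5.42, 6.11 and 5.48 in Sox2-negative pools. The fractions overlapped, as Sox2-negative pool 3 lay above Sox2-positive pool 1. The gene was 1.40-fold higher (difference 0.49, SE 0.14, adjusted p = 0.047, and 0.0152 with the replicate number as a block). This call, the only 1 of the monoamine and muscarinic family, was lost under 8 of 14 alternatives: quantile normalization, array weights, and the omission of any Sox2-positive pool but the first or any Sox2-negative pool but the third (adjusted p from 0.0533 to 0.136). Chrm2, which acts through inhibitory G proteins, had a difference of 0.27 with no overlap between the fractions (95% interval 0.07 to 0.47, adjusted p = 0.106). Chrm1 had a difference of 0.33 (adjusted p = 0.265), and Chrm4 and Chrm5 had differences of -0.19 and -0.08.

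The proteins that travel with glutamate receptors were described through a list of 33 measured genes for auxiliary subunits and scaffolds. Of these, 10 were higher and 1 lower (33.3% passed, beside 8.47% of all genes), with a median difference of 0.05. Cacng4, an AMPA receptor auxiliary subunit of the TARP family, was at 9.63, 10.23, 9.97 and 9.71 in Sox2-positive pools and at 6.46, 6.73, 6.77 and 6.47 in Sox2-negative pools. It was 9.68-fold higher (difference 3.27, SE 0.13, adjusted p = 5.26e-09), a larger change than that of any AMPA subunit gene measured. Neto1, an auxiliary subunit of kainate receptors, was 7.39-fold higher, at 7.95 ± 0.30 against 5.06 ± 0.21 (adjusted p = 4.05e-08). Shisa7, of a family that binds AMPA and GABA-A receptors, was 4.60-fold higher (adjusted p = 3.29e-07).

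Cacng2, which encodes stargazin, the TARP that granule neurons need to bring AMPA receptors to the surface, was the only list member that fell. It is named because of this, after its values were seen. It was at 7.61, 7.41, 7.0 and 7.82 in Sox2-positive pools and at 8.40, 8.26, 7.87 and 8.52 in Sox2-negative pools, and fell by 0.80 (SE 0.17, adjusted p = 0.00858). Of the 6 TARP genes measured, 4 were thus higher (Cacng4, Cacng5, Cacng7 and Cacng8), 1 was lower and Cacng3 did not pass (-0.09). Among scaffold genes, Dlgap1 (0.81, adjusted p = 0.000234) and Shank1 (0.47, adjusted p = 0.0324) rose, and both means of Shank1 lay below the guide. Shank2 (-0.05), Shank3 (-0.05), Grip1 (0.02), Grip2 (0.04) and Pick1 (-0.20) did not pass. Dlg1, Dlg2, Dlg3, Dlg4, Homer1, Homer2 and Homer3 did not pass, with differences between -0.13 and 0.22. These TARP and scaffold genes were also named after their values were seen.

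**Figure D5:**
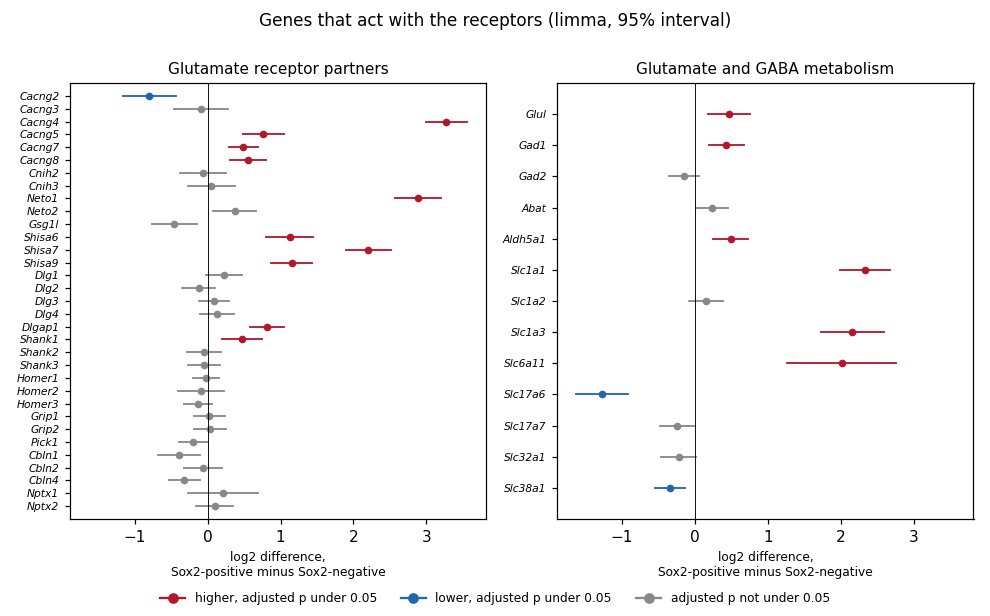
Difference in log2 value (Sox2-positive minus Sox2-negative, points) with its 95% interval (lines) for genes of glutamate receptor partners (left) and of glutamate and GABA metabolism (right). Cacng4 (3.27) and Neto1 (2.89) reach furthest to the right, and Cacng2 (-0.80) and Slc17a6 (-1.27) are the lowest points of their panels.

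Of 11 genes for partners of inhibitory receptors, 2 were higher and 0 lower (18.2% passed, beside 8.47% of all genes; median 0.20). Nlgn2, the adhesion protein of inhibitory synapses, was 1.71-fold higher (adjusted p = 0.00389). Kctd12b also passed, at 1.28-fold (adjusted p = 0.0484), but not with the replicate number as a block (0.0517) and without 7 of the 8 arrays in turn (0.0691 to 0.141), all but Sox2-positive pool 3. Gphn, which encodes gephyrin, had a difference of 0.20 and did not pass.

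Of 13 genes of glutamate and GABA synthesis, uptake and breakdown, 6 were higher and 2 lower, with a median of 0.23. Of this list 61.5% passed, beside 8.47% of all genes. The largest increases were of uptake transporters: Slc1a1 (5.03-fold, adjusted p = 5.92e-07) and Slc1a3 (4.46-fold, adjusted p = 1.08e-05) for glutamate, and Slc6a11 (4.03-fold, adjusted p = 0.00196) for GABA. Slc6a11 was at 9.59, 8.81, 10.75 and 8.61 in Sox2-positive pools, so pool 3 again stood highest. Of 17 genes of monoamine and acetylcholine synthesis, uptake and breakdown, 1 passed (5.88%, beside 8.47% of all genes). It was Ache, which encodes the enzyme that breaks down acetylcholine (1.30-fold higher, adjusted p = 0.0185), although leaving out Sox2-positive pool 1, Sox2-positive pool 4 or Sox2-negative pool 3 ended the call (0.0507 to 0.0562). Of 11 genes of G protein-coupled receptor desensitization, only Arrb1, a beta-arrestin gene, passed (1.60-fold higher, adjusted p = 0.000465), or 9.09% of the list, close to the share over all genes.

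Cell type markers moved with the same fractions, and in bulk RNA more cells of a type cannot be told apart from more RNA per cell. Over all genes, 5.96% were higher and 2.52% lower, and the marker counts are to be read beside these shares. Of 11 markers of oligodendrocyte progenitors, 10 were higher, and their summed linear level was 6730 to 10076 in Sox2-positive and 1230 to 1555 in Sox2-negative pools. Of 12 markers of astrocytes and Bergmann glia, 6 were higher, with sums of 3240 to 5187 against 1150 to 1539. The other 6 did not pass, and 2 of the 12 had a negative sign. Fabp7 (mean log2 level 10.90 against 8.24) and Slc1a3 (9.49 against 7.33) made up most of the Sox2-positive sums. Of 7 markers of mature oligodendrocytes, 4 were higher (805 to 2110 against 492 to 561). Of 10 markers of granule neuron progenitors, 9 were lower (3354 to 3767 against 5171 to 6733), and of 12 of differentiating granule neurons, which include Gabra6, 7 were lower and 1 higher (2035 to 2802 against 3095 to 4848). Among 9 Purkinje cell and interneuron markers, 2 rose and 1, Lhx1, fell (-1.07). Their sums were 498 to 569 against 641 to 836, while their mean log2 levels overlapped (5.37 to 5.52 against 5.38 to 5.44). Of 9 markers of endothelial cells and pericytes, 2 were higher (573 to 657 against 396 to 435), of which Cspg4 is also a marker of oligodendrocyte progenitors. Cspg4 (mean log2 level 7.97 against 5.84) carried most of the difference between these sums, and 6 of the 9 genes had a negative sign. Of 11 markers of microglia and macrophages, 0 passed in limma, and the sums were 667 to 722 against 629 to 751. An unadjusted p under 0.05 was found for 2 of the 11, and for 4454 of all 22180 genes. The part of these cell types in the receptor differences was not tested.

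Within the Sox2-positive fraction, each of the 17 higher receptor genes was highest in pool 2 or 3 and lowest in pool 1 or 4. Their patterns differed: Grik3 was at 7.10, 7.90, 7.17 and 7.65 in pools 1 to 4, and Gria1 at 7.10, 7.05, 7.87 and 6.85. Such ranks were not counted over all genes, so a pattern particular to receptor genes is not shown. Pool 3 was the highest of the 4 for 10 of them and pool 2 for 7, while pool 4 was the lowest for 11 and pool 1 for 6. Their mean level was 7.20, 7.57, 7.66 and 7.13 in Sox2-positive pools 1 to 4 and lay between 6.10 and 6.22 in the Sox2-negative pools. The mean level of the astrocyte and Bergmann glia markers was 7.25, 7.22, 7.56 and 7.06 in the same Sox2-positive pools, and that of the oligodendrocyte progenitor markers 8.90, 9.47, 9.23 and 9.07. Markers of differentiating granule neurons were at 6.88, 6.95, 7.36 and 6.92, and at 7.25 to 7.84 in the Sox2-negative pools, so the fractions overlapped. Markers of granule neuron progenitors were at 8.04, 7.82, 7.93 and 8.02, and mature oligodendrocyte markers at 6.48, 7.73, 6.74 and 7.04. By mean level, pools 2 and 3 were thus the highest for the receptor genes, the oligodendrocyte progenitor markers and the markers of differentiating granule neurons. Pools 1 and 4 were the highest for the granule neuron progenitor markers, pools 3 and 1 for the astrocyte markers and pools 2 and 4 for the mature oligodendrocyte markers. With 4 pools no correlation was computed, and the part of any cell type was not tested.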

How the data were processed

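Gene expression was measured on 8 Affymetrix arrays, 4 for each sorted fraction. The deposited table gives log2 values, a scale read from their range (2.51 to 13.6). The submitters' processing notes name RMA and Affymetrix Expression Console (1.2.0.20). RMA corrects background, normalizes arrays to a common distribution and summarises probes. Differences in total RNA per cell are lost in this step, and folds of dim genes are compressed. The genome build of the probe annotation is not given in the sources used here.

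Of 41345 probe sets, 23521 carried 1 gene symbol in the platform annotation, 1814 several and 16010 none. Where a gene had several probe sets, that of highest mean over the 8 arrays stood for it, which gave 22180 genes, and no dim gene was left out. Fractions were compared with limma (3.58.1, two-sided; R 4.3.3), with Benjamini-Hochberg adjustment over all 22180 genes and a threshold of 0.05. The procedure was tested on simulated data. Receptor genes, lists and tests were chosen with earlier results of these data known. The text names every receptor gene that passed, for each class also the gene of largest difference and that of highest mean, up to 3 genes that passed from each list of partners, and Sox2; Olig2 served as a second check of the sort. Other receptor genes are named with ranges or as neighbours, after their values were seen.

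In both fractions the pools carry the numbers 1 to 4. Deviations from the group means correlated at 0.164, 0.114, 0.177 and 0.241 between pools of the same number, all above 0.1. Of the 12 pairs of unequal number, 2 were also above 0.1 (0.161 and 0.137). The numbers were taken to pair the pools, which rests on the data, as the labels are silent on it. The SE, intervals and adjusted p-values printed are still those of the fit without the numbers, except where a block is named. They therefore count variation shared by pools of the same number as error. The alternatives were the number as a block, quantile normalization, the mean of probe sets, leaving out dim genes, a variance trend, array weights and leaving out each array.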

Additional observations from a re-analysis of the deposited data

Results flagged for a closer look

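In some groups of 4 pools, 1 pool stood apart: its gap to the nearest of the others was a larger part of the range of the group than the critical value of Dixon's test. This was found for 7 of 82 groups (41 genes in 2 fractions), and chance gives about 1 in 20. For receptor genes it held for Gria4 in Sox2-negative pools (0.938 of the range), where pool 3 was at 8.42 and the others at 8.11 to 8.13. It held for Gabrg1 in Sox2-negative pools (0.878), where pool 2 was at 5.95 and the others at 5.53 to 5.58. Htr2b in Sox2-negative pools (0.856) had pool 3 at 5.54 and the others at 5.82 to 5.87. Drd3 in Sox2-positive pools (0.837) had pool 3 at 6.05 and the others at 6.32 to 6.37. Among the other genes, Neto1 in Sox2-negative pools (0.831) had pool 2 at 5.37 and the others at 4.92 to 5.0. Arrb1 in Sox2-positive pools (0.924) had pool 2 at 8.05 and the others at 7.75 to 7.78. Olig2, a factor of the oligodendrocyte lineage, in Sox2-positive pools (0.837) had pool 3 at 9.85 and the others at 9.02 to 9.15.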

How the results depend on the processing

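Over 14 alternatives the number of higher receptor genes was 15 to 18 (17 as reported) and that of lower ones 1 to 3 (2 as reported). With the replicate number as a block, 19 of 19 receptor genes kept their call and Gabra4 was added (adjusted p = 0.0387). Among the partner genes named, Kctd12b lost its call with the block (0.0517). That the numbers pair the pools was taken from the data and is not given by the labels. Without 1 array in turn, lower receptor genes numbered 1 to 3, those of the glutamate family 1 to 2, higher genes of the monoamine and muscarinic family 0 to 1 and lower ones 0 to 1, where the 1 was Htr1a without Sox2-negative pool 2. Higher genes of that family numbered 0 with quantile normalization and 0 with array weights, as Chrm3 lost its call. Lower genes over the whole table numbered 847 with quantile normalization and 309 to 591 without 1 array, with 309 without Sox2-positive pool 2, 361 without Sox2-positive pool 4 and 357 without Sox2-negative pool 1. Of the 29 receptor genes named by the rule, these changed sign, none of which had passed: Gria2 (-0.217 to 0.103) and Gabbr1 (-0.161 to 0.036) without 1 array, Adra1b without 1 array (-0.034 to 0.055) and with array weights (-0.004), and Grm7 with the mean of probe sets (0.001). The signs of other receptor genes were not followed. Leaving out dim genes removed 35 receptor genes from the test, Grik1 among them. The cause of these changes was not tested. For dim genes, signal close to background limits the size of a measured difference.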

Other observations

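Probe sets that carry the symbols of a receptor gene and of another gene were used in no comparison above. The set shared by Mir592 and Grm8 had a log2 difference of -0.32 (95% interval -0.58 to -0.05), that shared by Chrm2 and 9330158H04Rik -0.23 (-0.42 to -0.04) and that shared by Htr1b and D430036J16Rik 0.001 (-0.24 to 0.24). None passed limma over all 41345 probe sets (adjusted p = 0.225, 0.219 and 0.998), and 2 had an unadjusted p under 0.05. The difference of the shared Chrm2 set has the opposite sign to that of the set used for Chrm2 (0.27).

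Of the 7 receptor genes with 2 probe sets of their own, 4 had differences of opposite sign in them. For Grin2d these were 0.21 and -0.03, for Grin2c 0.11 and -0.04, for Grm7 0.08 and -0.07, and for Drd5 -0.04 and 0.09.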
